A study of Mus musculus with 46 samples.

Results

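Cadherins and protocadherins are the calcium-dependent adhesion proteins of the cell surface, and 57 of their genes were followed through 23 mouse stem cell lines. A member is any gene whose symbol is Cdh followed by a number, or begins with Pcdh, and which has a probe set with that symbol alone. These 57 genes were found among 19938, on 61 probe sets. For Cdh18, Cdh24, Pcdh15 and Pcdh9, which have several probe sets, the brightest was used. They comprise 5 type I and 13 type II classical cadherins, 5 other cadherins, 4 delta-1, 5 delta-2 and 3 other non-clustered protocadherins, and 22 clustered protocadherins of the beta group. Probe sets that read several genes were left out, among them 1 probe set shared by 14 symbols of the alpha group.

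RNA was hybridised to 46 whole-transcript arrays, 2 cultures for each line, in a study of pluripotent cells induced from germline stem cells. Germline stem (GS) cells are spermatogonial stem cells kept in culture, and multipotent germline stem (mGS) cells are ES-like cells derived from them. The groups were 3 GS lines, 2 mGS lines that arose spontaneously in GS culture, and 3 lines each of ES cells and of iPS cells, the latter made by retrovirus carrying Oct4, Sox2, Klf4 plus c-myc. A further 3 lines each were mGS cells induced by lentivirus: Dnmt mGS (knockdown of p53 and Dnmt1), Dmrt mGS (knockdown of p53 and Dmrt1), Sox2 mGS (Sox2 plus p53 knockdown) and Oct4 mGS (Oct4 plus p53 knockdown). All lines but the ES cells were DBA/2; GFP Tg. The ES lines were R1 (129 substrain hybrid), B6-6 (C57BL/6J) and BRC1 ((B6xDBA2)x129), so strain and ES origin cannot be told apart. GS cells grew in StemPro-34 medium with basic FGF and GDNF and the pluripotent lines in DMEM with fetal bovine serum and LIF, so cell type and medium cannot be told apart either. Every culture was on mouse embryonic fibroblasts (MEFs), which a plating step on gelatin was meant to remove.

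Classical cadherins bind the same cadherin on the neighbouring cell and are tied to actin through catenins. E-cadherin (Cdh1) holds embryonic stem cells and epithelia together, whereas N-cadherin (Cdh2) and cadherin 11 (Cdh11) are typical of neural and mesenchymal cells. The non-clustered protocadherins adhere more weakly and are best known from the nervous system, and the clustered ones give single neurons a surface identity.

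The stretches of 250 bases upstream of Pcdh18, Pcdh19 and Cdh9 are shown. These 3 were chosen after their values and sequences were seen, from 18 members called higher in Sox2 mGS than in GS, of which 7 have an entry. The sequences are RefSeq's on GRCm38.p6, 5′ to 3′ on the gene's strand, at chr3:49757317-49757566 (minus strand) for Pcdh18, chrX:133688994-133689243 (minus) for Pcdh19 and chr15:16728665-16728914 (plus) for Cdh9. Capitals mark CCAAT or, read from the other strand, ATTGG.
Pcdh18: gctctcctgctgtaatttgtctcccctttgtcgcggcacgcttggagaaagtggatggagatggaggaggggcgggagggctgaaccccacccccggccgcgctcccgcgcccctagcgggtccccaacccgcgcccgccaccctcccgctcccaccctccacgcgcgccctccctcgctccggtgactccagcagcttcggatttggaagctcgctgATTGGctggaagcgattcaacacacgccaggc
Pcdh19: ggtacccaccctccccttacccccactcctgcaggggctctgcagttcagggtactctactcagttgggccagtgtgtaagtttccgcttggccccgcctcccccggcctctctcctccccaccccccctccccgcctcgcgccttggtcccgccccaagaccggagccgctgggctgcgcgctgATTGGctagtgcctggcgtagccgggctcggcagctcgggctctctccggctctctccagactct
Cdh9: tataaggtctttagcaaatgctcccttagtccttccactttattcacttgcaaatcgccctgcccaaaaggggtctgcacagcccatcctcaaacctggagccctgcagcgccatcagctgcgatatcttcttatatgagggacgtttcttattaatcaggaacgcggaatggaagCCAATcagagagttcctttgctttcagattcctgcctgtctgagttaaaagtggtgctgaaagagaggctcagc
Each of the 3 holds the motif once, with its centre 30 bases before the start in Pcdh18, 63 in Pcdh19 and 72 in Cdh9. CCAAT on either strand occurs in 33.8% of the 32851 upstream stretches of this length. The longest run shared by the 3, on either strand, is AGCCAATCAG (CTGATTGGCT on the other strand), which contains CCAAT and occurs in 1.37% of all stretches. Both motifs were chosen after the sequences were seen. Among the 25 stretches found for 22 members, 15 hold CCAAT and 4 the longer form, the last of them that of Cdh18. Of the 7 called members with an entry, 5 hold CCAAT, and Cdh10, Cdh6, Cdh8 and Pcdh9 lack the longer form. Of the 15 other members with an entry, 9 hold CCAAT and 1 the longer form. CG pairs numbered 23 in Pcdh18, 16 in Pcdh19 and 6 in Cdh9, where 86.7%, 74.6% and 49.6% of all stretches have fewer. No binding was measured at any of them.

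Values are linear intensities, and a group's level is the geometric mean of its lines. The 95th percentile of 1027 olfactory receptor genes, 161, served as the background level. Array medians lay between 215.4 and 242.5, apart from culture 1 of Oct4 mGS 1 at 264.8. A difference is on the log2 scale, positive where the group named first is higher, and carries its standard error from limma. A gene is called where limma's Benjamini-Hochberg adjusted p over all genes is under 0.05. Each group has n = 3 lines and mGS n = 2, and since the labels do not say that lines came from separate animals, p-values measure only the spread between lines. All 6 pluripotency markers were above background in the means of the 7 pluripotent groups and all 7 spermatogonial markers in that of GS cells. At or under it were 4 of the 6 in GS but only 2 to 4 of the 7 in the pluripotent groups. Against iPS cells, Esrrb, Dppa5a and Fgf4 were called lower in Sox2 mGS and Dppa5a in Oct4 mGS, where 9.22% and 3.43% of all genes were lower. Esrrb read 127.5 in Sox2 mGS 2, under background. Of the targeted genes, Dnmt1 read 620.0 and 646.7 in Dnmt mGS 1 and 3 but 2752.2 in the line labelled Dnmt mGS 2, inside the 1933.6 to 2772.1 of the other induced lines. Dmrt1 read 3378.6 to 4219.5 in GS and 191.1 to 553.8 in Dmrt mGS, within the 150.7 to 665.2 of the other induced lines. Sox2 read 1252.9 to 1302.6 in Sox2 mGS against 4071.4 to 4627.1 in iPS cells. GS 1 stood apart from GS 2 and 3 in Sox2 (1807.4 against 330.8 and 293.3) and Pou5f1 (1000.1 against 364.6 and 380.9).

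A score of 19 feeder and fibroblast markers, the geometric mean of their intensities, differed between lines. It was 304.8 to 914.7 in GS, 420.1 to 572.3 in iPS, 501.0 to 1447.2 in ES and 420.3 and 1247.6 in the mGS lines. In Dnmt mGS it spanned 347.0 to 1746.3, in Dmrt mGS 355.8 to 1365.4, in Oct4 mGS 936.5 to 1965.4 and in Sox2 mGS 1801.7 to 2505.9. At or under background in the group mean were 2 of the 19 markers in GS, 4 in iPS cells and 0 in the other groups. Values with this score as a covariate in the fit come from an alternative added after the data were seen. Every Sox2 mGS and Oct4 mGS line had a higher score than every GS and iPS line. In comparisons between them score and group cannot be told apart, and the fit carries a slope from within groups across that gap. A call kept or lost there does not show whether a difference comes from feeder cells.

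Few of the members had a level above background. The mean over all lines exceeded 161 for 16 of 57 members (28.1%), against 12749 genes, or 63.9% of all. A group mean above it was reached by 23 members, in all 8 groups by 9 of them. The other 34, 21 of them beta protocadherins, had means of 24.9 to 134.0, and no fold is given for them. An F test over the 8 groups called 27 members, where 61.0% of all genes were called, and 14 of those 27 were never above background in a group. Without GS cells, the test over the 7 pluripotent groups called 16 members, where 29.4% of genes were called. Without Sox2 mGS 1, 2 or 3 it called 8, 9 or 5, and without iPS 2 it called 10. How many of all genes those fits called is not given, so the lower counts are not shown to be particular to the members.

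Cdh1, which encodes E-cadherin, separated GS cells from every pluripotent line. It read 337.0, 249.5 and 210.0 in GS 1, 2 and 3, all above background. It read 4251.4, 3737.6 and 3619.7 in the ES lines R1, B6-6 and BRC1, and 2889.7, 3219.5 and 3447.0 in iPS 1, 2 and 5. The mGS lines 1 and 2 read 2668.5 and 3597.6. Among the induced lines Cdh1 was 3170.2, 3480.9 and 3200.5 for Dnmt mGS, 3342.6, 3485.9 and 3543.6 for Dmrt mGS and 4637.8, 4274.3 and 3569.9 for Oct4 mGS. The widest spread was in Sox2 mGS, at 2304.2, 4805.9 and 4093.3 in lines 1, 2 and 3. No pluripotent line came near a GS line: the lowest, Sox2 mGS 1, was still far above GS 1, the highest of the GS lines. In bulk RNA, fewer expressing cells and less RNA per cell cannot be told apart.

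Against ES cells Cdh1 was 14.8-fold lower in GS (−3.89 ± 0.21, limma adjusted p = 8.6e-11), and against iPS cells 12.2-fold lower (−3.61 ± 0.21, adjusted p = 2.1e-10). The mGS lines exceeded GS by 3.57 ± 0.23. Among induced lines the rise over GS was 3.99 ± 0.21 for Oct4 mGS, 3.78 ± 0.21 for Sox2 mGS, 3.73 ± 0.21 for Dmrt mGS and 3.66 ± 0.21 for Dnmt mGS. These 7 calls held without any 1 line, and without GS 1 the difference from ES cells was −4.08. With the feeder score as a covariate it was −3.81. Among the 7 pluripotent groups Cdh1 was not called (F test adjusted p = 0.56), and the difference of iPS from ES cells was −0.28 ± 0.21.

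Cdh3, the P-cadherin gene that lies next to Cdh1 on chromosome 8, was likewise lowest in GS, with more scatter. It read 284.1, 177.7 and 536.8 in GS 1, 2 and 3 and 750.7, 727.4 and 842.3 in the iPS lines. ES R1 was the highest of all lines at 1381.6, with B6-6 at 565.8 and BRC1 at 594.6. Sox2 mGS lines read 1167.2, 836.5 and 1079.6, Oct4 mGS 777.1, 716.4 and 866.6 and mGS 827.9 and 1083.8, all above the GS lines. Dnmt mGS, at 598.8, 357.2 and 942.9, and Dmrt mGS, at 240.9, 763.1 and 934.0, overlapped them. Cdh3 was lower in GS than in ES (−1.37 ± 0.47, adjusted p = 0.025) and iPS cells (−1.36 ± 0.47, adjusted p = 0.021). It rose over GS in mGS (1.66 ± 0.53), Sox2 mGS (1.76 ± 0.47) and Oct4 mGS (1.38 ± 0.47). The differences in Dnmt mGS (0.97 ± 0.47, adjusted p = 0.096) and Dmrt mGS (0.89 ± 0.47, adjusted p = 0.14) did not pass.

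Without single lines most of the Cdh3 calls did not pass, some with nearly the same difference. That against ES was lost without ES R1 (−0.95), GS 1 (−1.33) or GS 2 (−0.99), and that against iPS without iPS 5 (−1.30) or GS 2 (−0.98). The rise in mGS was lost without mGS 2 (1.46) or GS 2 (1.28). That in Oct4 mGS was lost without GS 1 (1.34), GS 2 (1.01), Oct4 mGS 1 (1.39) or Oct4 mGS 3 (1.31), and that in Sox2 mGS held without any 1 line but not with the feeder score as a covariate (1.13, adjusted p = 0.16). Cdh3 over all 8 groups did not pass the F test (adjusted p = 0.063).

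**Figure D1:**
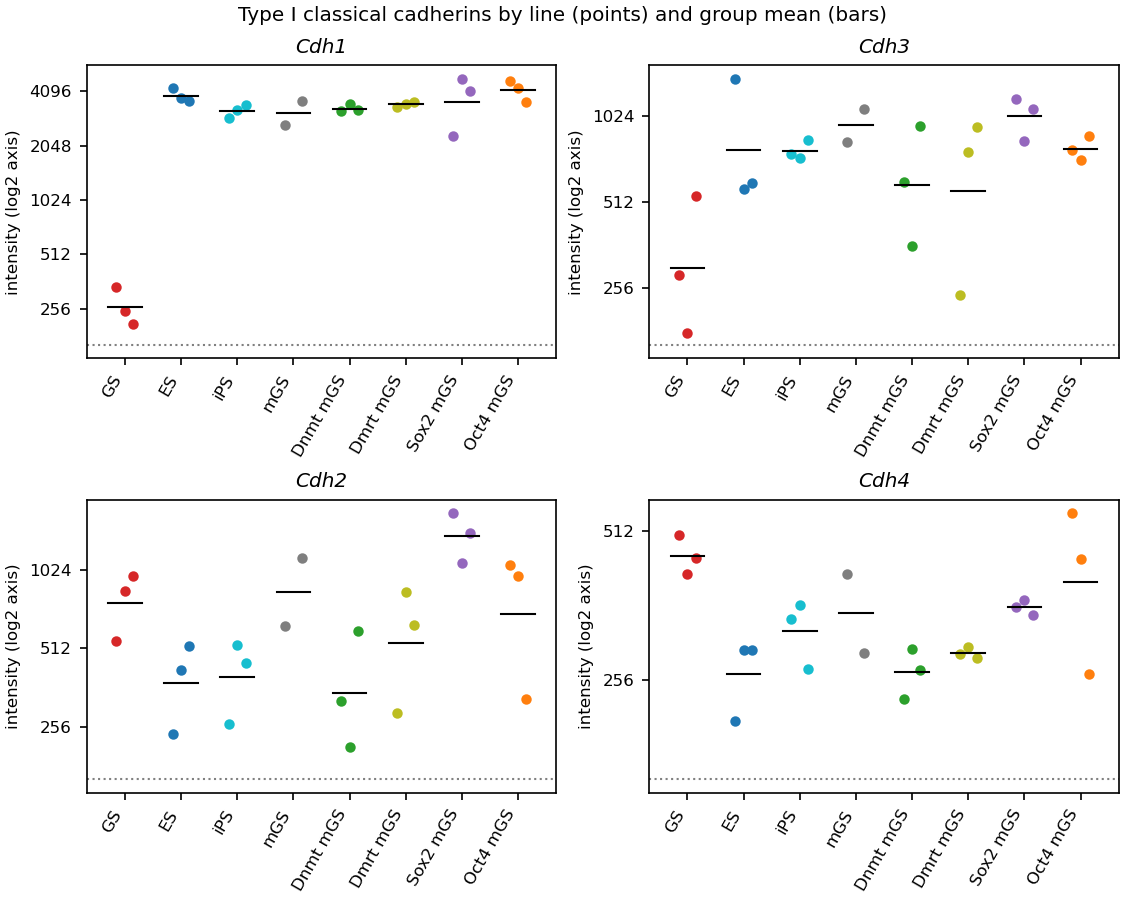
Intensity of Cdh1, Cdh3, Cdh2 and Cdh4 in each of the 23 lines (points) with the geometric mean of each group (bars), on a log2 axis, and the background level of 161 as a dotted line where it falls in range. Cdh1 lies between 210.0 and 337.0 in GS and between 2304.2 and 4805.9 in all other lines, whereas the other 3 genes overlap between groups.

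Cdh2, the N-cadherin gene, had its highest group mean in Sox2 mGS, at 1690.4, 1090.2 and 1414.4 in lines 1, 2 and 3. In iPS 1, 2 and 5 it read 262.2, 526.0 and 449.9, and in ES R1, B6-6 and BRC1 239.1, 424.0 and 522.5. GS lines read 544.4, 844.7 and 970.4, above every ES and iPS line, although neither difference passed (1.02 ± 0.49, adjusted p = 0.1 against ES, and 0.95 ± 0.49, adjusted p = 0.11 against iPS). The other lines were scattered: 621.4 and 1137.6 in mGS 1 and 2, 1062.4, 969.6 and 325.7 for Oct4 mGS, 289.7, 844.2 and 628.2 for Dmrt mGS, and 320.5, 214.8 and 594.0 for Dnmt mGS.

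Cdh2 rose in Sox2 mGS 3.48-fold over iPS cells (1.80 ± 0.49, adjusted p = 0.015) and 2.73-fold over the mean of the other 3 induced routes (1.45 ± 0.40, adjusted p = 0.024), with no overlap of lines. In Dnmt mGS it fell below the other routes (−1.22 ± 0.40, adjusted p = 0.043), with overlapping lines. The call against iPS was lost without iPS 1 (1.50) or Sox2 mGS 1 (1.65), and that of Sox2 mGS against the other routes without Sox2 mGS 1 (1.30), 2 (1.62) or 3 (1.43). The call in Dnmt mGS was lost without Dnmt mGS 1 (−1.16), the line labelled Dnmt mGS 2 (−0.87), Dmrt mGS 2 (−1.11) or 3 (−1.18), Sox2 mGS 1 (−1.17) or 3 (−1.21), or Oct4 mGS 1 (−1.11) or 2 (−1.14). The line with the highest feeder score of its group had the highest Cdh2 in 5 of 8 groups, and that with the lowest score the lowest in 7. This was not particular to Cdh2. The highest score went with the highest level in 5 groups for 8 members, in 6 for 4, in 7 for 6 and in 8 for 1. Those at 7 were Cdh6, Cdh13, Pcdh7, Pcdh9, Pcdh18 and the dim Pcdhb22. Fitted with the score, Sox2 mGS differed from iPS by 0.56 (adjusted p = 0.41) and from the other routes by 0.75 (adjusted p = 0.22), and Dnmt mGS by −0.69 (adjusted p = 0.16).

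Cdh4 (R-cadherin) and Cdh15 (M-cadherin, known from muscle) each had their highest group mean in GS. Cdh4 read 502.4, 420.6 and 452.4 in GS, 211.5, 294.8 and 294.0 in ES and 340.9, 362.6 and 269.0 in iPS 1, 2 and 5. It was 419.9 and 290.3 in mGS 1 and 2. In the induced lines it was 234.6, 295.8 and 268.4 for Dnmt mGS, 288.9, 298.6 and 284.0 for Dmrt mGS and 359.6, 371.2 and 347.0 for Sox2 mGS. Oct4 mGS 1 and 2 were at the GS level, 558.4 and 451.2, and Oct4 mGS 3 was not, at 263.1. Cdh4 was higher in GS than in ES (0.79 ± 0.21, adjusted p = 0.0049). It fell below GS by 0.79 ± 0.21 for Dnmt mGS and 0.65 ± 0.21 for Dmrt mGS, the latter not called without GS 1 (−0.59). Against iPS the difference of 0.51 ± 0.21 did not pass. 

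Cdh15 was above background in the group mean in GS only, at 178.9, 196.5 and 209.7 in GS 1, 2 and 3. It read 143.4, 144.3 and 147.7 in ES, 142.4, 142.2 and 131.7 in iPS and 137.6 and 134.2 in mGS lines. For the induced lines it read 131.3, 141.2 and 155.1 (Dnmt mGS), 152.6, 157.8 and 161.4 (Dmrt mGS), 158.7, 142.8 and 161.0 (Sox2 mGS) and 167.4, 158.7 and 146.6 (Oct4 mGS). Every GS line was above every other line. It was higher in GS than in ES (0.42 ± 0.08) and iPS cells (0.49 ± 0.08), at least 1.21-fold, and its 7 calls against GS held without any 1 line.

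Among the type II cadherins, Cdh11, known from mesenchymal cells and fibroblasts, varied widely between lines of the same group. It read 1209.1 in GS 1 but 169.1 and 134.8 in GS 2 and 3. It was 562.8, 1707.7 and 2519.8 in ES R1, B6-6 and BRC1, and 212.8, 489.9 and 600.6 in iPS 1, 2 and 5. In mGS 1 and 2 it was 478.3 and 1977.5, for Dmrt mGS 115.0, 2343.8 and 1896.4 and for Dnmt mGS 353.2, 124.8 and 2708.0. Oct4 mGS lines read 3392.6, 2786.2 and 921.7 and Sox2 mGS lines 4147.9, 2981.9 and 4386.0. In each of the 8 groups the line with the highest feeder score had the highest Cdh11 and the line with the lowest score the lowest.

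Cdh11 rose 12.5-fold in Sox2 mGS over GS (3.65 ± 1.17, adjusted p = 0.016). The call was lost without GS 2 (3.23) or GS 3 (3.07), and the difference was 4.65 without GS 1. Against iPS the difference of 3.25 ± 1.17 did not pass (adjusted p = 0.051), nor did the F test over 8 groups (adjusted p = 0.11). The difference from GS was −0.58 once the feeder score was a covariate (adjusted p = 0.23). Another 3 probe sets that read Cdh11 together with 2 other genes, at 2612.4 to 5318.9 in the group means, were not used. They read 3509.8, 2612.4 and 3930.1 in GS and 4380.6, 2963.2 and 4643.7 in Sox2 mGS, without a rise of that size. Each was highest in Dnmt mGS. Which of the genes they read was not tested. The cultures of iPS 5 differed most for Cdh11, at 402.3 and 896.9.

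**Figure D2:**
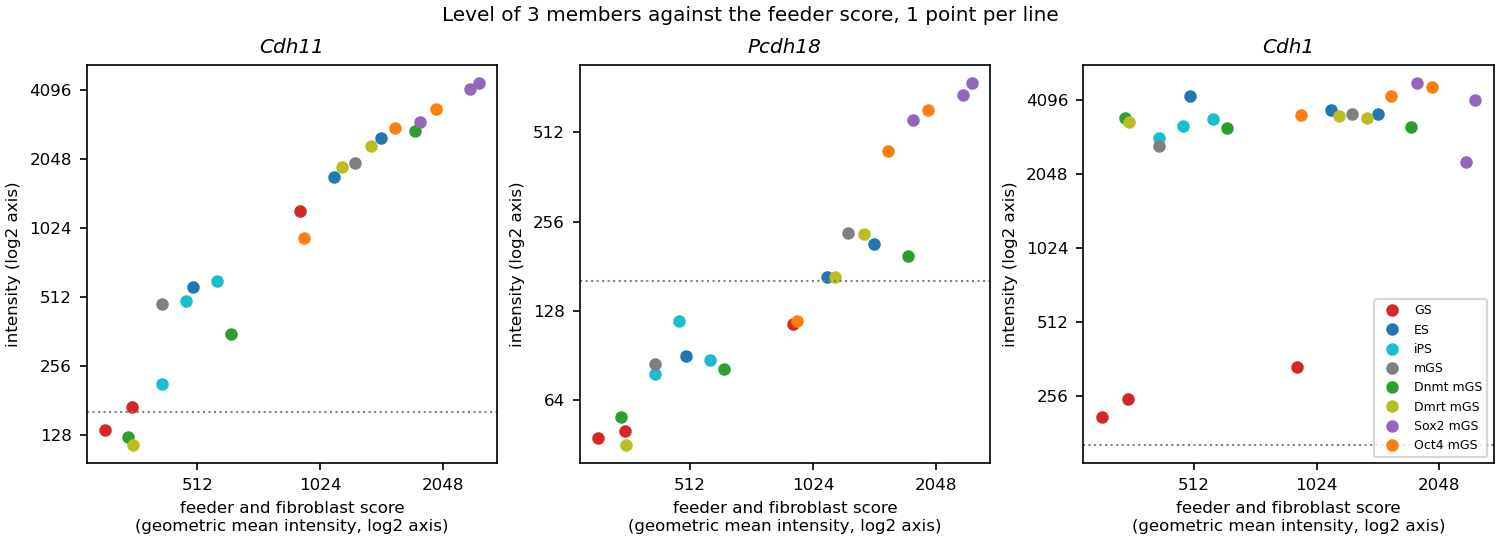
Intensity of Cdh11, Pcdh18 and Cdh1 in each of the 23 lines (1 point per line, coloured by group) against the line's feeder and fibroblast score, the geometric mean of 19 marker genes, both on log2 axes, with the background level of 161 dotted. Cdh11 and Pcdh18 have their highest group means in Sox2 mGS, whose scores are 1801.7 to 2505.9, whereas Cdh1 is at least 2304.2 in pluripotent lines of every score and at most 337.0 in GS.

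Cdh9, a type II cadherin best known from synapses, passed the F test over 8 groups (adjusted p = 0.019), although only Sox2 mGS exceeded background in the mean. GS lines read 36.3, 41.7 and 41.5, and Sox2 mGS lines 74.3, 287.9 and 318.5. ES lines read 74.4, 72.6 and 71.9, iPS lines 79.2, 84.8 and 111.5 and Dnmt mGS lines 42.0, 55.5 and 53.8, all below background. It was at least 1.18-fold higher in Sox2 mGS than in GS (2.25 ± 0.52, adjusted p = 0.0018), or 2.93 without Sox2 mGS 1, and with the feeder score as a covariate 1.42 (adjusted p = 0.1). The mGS lines read 80.3 and 191.3, Dmrt mGS lines 55.4, 180.1 and 141.8 and Oct4 mGS lines 216.5, 131.5 and 58.4, each above all GS lines. Their differences from GS were called too, at 1.64 ± 0.59 for mGS, 1.58 ± 0.52 for Oct4 mGS and 1.50 ± 0.52 for Dmrt mGS. The mGS call was lost without GS 1 (1.58), GS 2 (1.68), GS 3 (1.67) or mGS 2 (1.02), and the difference was 2.27 without mGS 1. The Dmrt mGS call was lost without GS 1 (1.43), GS 2 (1.53), GS 3 (1.53), Dmrt mGS 2 (1.16) or 3 (1.33), and that of Oct4 mGS without GS 1 (1.51), Oct4 mGS 1 (1.14) or 2 (1.50).

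Cdh6, known from the developing kidney, read 191.3 to 242.1 in Sox2 mGS, 145.3 to 229.3 in Oct4 mGS and 91.3 to 131.5 in GS. It rose over GS in Sox2 mGS (1.03 ± 0.35, adjusted p = 0.021) and Oct4 mGS (0.91 ± 0.35, adjusted p = 0.041). The first call was lost without GS 2 (0.96), GS 3 (0.93) or Sox2 mGS 1 (0.94). The second was lost without GS 2 (0.84), GS 3 (0.81), Oct4 mGS 1 (0.80) or Oct4 mGS 2 (0.81), and without culture 1 of Oct4 mGS 1 (0.84). Fitted with the feeder score they were −0.09 and 0.11.

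Cdh22 moved little but evenly, from 164.1, 163.9 and 149.8 in iPS lines to 195.9, 192.8 and 195.7 (Sox2 mGS) and 195.4, 198.5 and 200.1 (Oct4 mGS). It read 163.0, 187.4 and 171.1 in ES, 182.2, 185.8 and 188.7 in GS and 171.3 and 163.6 in mGS lines. Dnmt mGS lines read 166.0, 162.6 and 166.2 and Dmrt mGS lines 179.0, 167.6 and 174.7, all below the Sox2 mGS and Oct4 mGS lines. It was higher than in iPS in Sox2 mGS (0.29 ± 0.06, adjusted p = 0.0035) and Oct4 mGS (0.32 ± 0.06, adjusted p = 0.0057). The second was not called with arrays centred on the median (0.21). Cdh5, the VE-cadherin gene of endothelium, stayed below background in all group means (99.6 to 141.7) and was called lower than GS in the 7 pluripotent groups by 0.33 to 0.51. Of 5 other endothelial markers, 4 were at or under background in GS. 

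Among other cadherins, the GPI-anchored T-cadherin gene Cdh13 did not pass the F test (adjusted p = 0.45). It read 215.3, 124.2 and 130.1 in GS, 164.3, 455.8 and 506.9 in ES, 426.3, 180.8 and 168.9 in iPS and 122.9 and 241.4 in mGS lines. The induced lines read 154.0, 142.0 and 426.7 (Dnmt mGS), 97.0, 384.2 and 310.2 (Dmrt mGS), 297.0, 264.4 and 344.5 (Sox2 mGS) and 448.5, 356.7 and 215.9 (Oct4 mGS). Lines of the same group lay far apart in ES, iPS, Dnmt mGS and Dmrt mGS, and the extremes were 97.0 in Dmrt mGS 1 and 506.9 in ES BRC1.

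Pcdh18, a delta-2 protocadherin, was high in Sox2 mGS and in part of the Oct4 mGS lines. It read 115.2, 50.3 and 47.6 in GS 1, 2 and 3 and 78.4, 118.2 and 87.6 in iPS 1, 2 and 5, all below background. Sox2 mGS lines read 685.0, 564.4 and 748.3, and Oct4 mGS lines 606.8, 441.9 and 118.2. No line outside Sox2 mGS and Oct4 mGS exceeded the higher of the mGS lines, which read 85.1 and 234.6 in mGS 1 and 2. ES R1, B6-6 and BRC1 read 90.0, 167.1 and 214.4. Dnmt mGS lines read 81.8, 56.4 and 195.5, and Dmrt mGS lines 45.1, 232.7 and 165.9.

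Pcdh18 rose at least 4.11-fold in Sox2 mGS over GS (3.35 ± 0.65, adjusted p = 3.7e-04), iPS (2.83 ± 0.65, adjusted p = 0.0058) and the other routes (2.10 ± 0.53, adjusted p = 0.016). In Oct4 mGS it was at least 1.96-fold above GS (2.28 ± 0.65, adjusted p = 0.0082), not called without Oct4 mGS 1 (1.81) and 2.99 without Oct4 mGS 3. The call of Sox2 mGS against the other routes was lost without Sox2 mGS 1 (2.07) or 3 (2.01). Those against GS and iPS held without any 1 line. The line with the lowest feeder score had the lowest Pcdh18 in 8 of 8 groups, and that with the highest score the highest in 7. With the score as a covariate Pcdh18 in Sox2 mGS kept its calls against GS (1.12, adjusted p = 0.015) and the other routes (0.89, adjusted p = 0.042) and lost that against iPS (0.68, adjusted p = 0.17). The Oct4 mGS call was lost too (0.68, adjusted p = 0.081). Scores of both groups lay above all those of GS and iPS, so score and group cannot be told apart in these comparisons.

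Pcdh19, another delta-2 gene, X-linked and known from epilepsy in girls, read 411.7, 278.8 and 350.4 in Sox2 mGS. The iPS lines read 136.7, 135.0 and 132.7 and the GS lines 151.6, 133.0 and 123.6, all below background. It was 112.3, 247.9 and 286.7 in ES, 111.1 and 191.5 in mGS, 164.2, 135.1 and 315.5 in Dnmt mGS, 152.8, 310.8 and 275.0 for Dmrt mGS and 283.3, 222.8 and 147.5 for Oct4 mGS lines. Single lines there reached the Sox2 mGS range: ES BRC1, Dnmt mGS 3, Dmrt mGS 2 and Oct4 mGS 1. In Sox2 mGS, Pcdh19 was at least 2.13-fold above GS (1.34 ± 0.36, adjusted p = 0.0058) and iPS cells (1.35 ± 0.36, adjusted p = 0.014), the latter lost without Sox2 mGS 1 (1.21). With the feeder score as a covariate the differences were 0.12 and 0.17. 

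Pcdh17, also of the delta-2 group, was above background in all 23 lines and was not called (F test adjusted p = 0.44). It read 295.3, 273.0 and 310.5 in GS, 220.1, 293.9 and 305.0 in ES, 295.2, 260.3 and 231.2 in iPS and 282.6 and 242.5 in mGS lines. Levels in the induced lines were 252.8, 250.3 and 269.1 (Dnmt mGS), 291.3, 269.9 and 288.8 (Dmrt mGS), 286.3, 248.2 and 273.7 (Sox2 mGS) and 254.5, 239.7 and 233.1 (Oct4 mGS). The lines stayed between 220.1 and 310.5.

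Of the delta-1 genes, Pcdh9 read 178.0, 168.6 and 208.0 in Sox2 mGS against 98.4, 104.7 and 100.9 in iPS and 126.6, 101.0 and 120.5 in GS lines. It read 91.3, 180.8 and 192.1 in ES, 107.0 and 110.0 in mGS, 96.8, 94.6 and 133.1 in Dnmt mGS, 112.5, 139.4 and 138.5 for Dmrt mGS and 205.7, 190.3 and 113.6 for Oct4 mGS lines. It was called higher than in GS (0.67 ± 0.24, adjusted p = 0.03) and iPS (0.86 ± 0.24, adjusted p = 0.016). The first call was lost without GS 2 (0.58), GS 3 (0.70), Sox2 mGS 1 (0.70) or Sox2 mGS 3 (0.58), and the second without iPS 1 (0.84) or Sox2 mGS 3 (0.77). Fitted with the feeder score they were 0.05 and 0.26. 

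Pcdh1, likewise delta-1, read 189.5, 382.6 and 482.9 in GS, 141.3, 112.1 and 125.4 in ES, 99.7, 150.3 and 178.4 in iPS and 151.7 and 218.5 in mGS lines. The induced lines read 106.2, 75.9 and 215.7 (Dnmt mGS), 60.4, 417.3 and 292.9 (Dmrt mGS), 195.4, 431.8 and 365.4 (Sox2 mGS) and 350.9, 337.4 and 90.8 (Oct4 mGS). The GS lines lay above the ES and iPS lines. The difference from ES, 1.38 ± 0.63, did not pass (adjusted p = 0.084).

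Pcdh12, known from endothelium, was above background in every line. It read 386.9, 531.1 and 518.4 in GS, 370.5, 345.5 and 335.5 in iPS, 355.5, 408.8 and 407.3 in ES and 391.6 and 356.2 in mGS lines. Values in the induced lines were 339.7, 343.6 and 340.7 (Dnmt mGS), 426.5, 386.8 and 404.1 (Dmrt mGS), 465.2, 420.9 and 455.5 (Sox2 mGS) and 368.9, 442.8 and 509.8 (Oct4 mGS). GS lines lay above all Dnmt mGS and iPS lines. It was lower than GS in Dnmt mGS (−0.47 ± 0.12, adjusted p = 0.0028) and higher in GS than in iPS (0.44 ± 0.12, adjusted p = 0.0047), both held without any 1 line. The cultures of the line labelled Dnmt mGS 2 read 276.3 and 427.2, further apart than the means of the 3 Dnmt mGS lines. 

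Pcdh15, a protocadherin of the inner ear hair bundle, read 245.7, 209.3 and 226.4 in GS, 202.4, 197.2 and 251.6 in ES, 206.9, 220.5 and 215.1 in iPS and 213.8 and 212.2 in mGS lines. The induced lines read 208.5, 202.8 and 209.4 (Dnmt mGS), 217.8, 193.3 and 213.8 (Dmrt mGS), 183.2, 177.5 and 187.8 (Sox2 mGS) and 159.7, 191.5 and 176.6 (Oct4 mGS). The Sox2 mGS and Oct4 mGS lines were all below the GS lines. It was lower than GS in Sox2 mGS (−0.31 ± 0.09) and Oct4 mGS (−0.37 ± 0.09). With its probe sets averaged, the differences were −0.14 and −0.13 and neither passed. Pcdh20, a non-clustered protocadherin, read 155.6, 192.0 and 179.0 in GS, 135.3, 165.2 and 170.7 in ES, 143.9, 138.4 and 144.4 in iPS and 152.7 and 156.5 in mGS lines. For the induced lines the values were 149.8, 141.8 and 163.0 (Dnmt mGS), 173.2, 164.1 and 168.1 (Dmrt mGS), 182.2, 174.0 and 187.2 (Sox2 mGS) and 171.8, 179.3 and 170.9 (Oct4 mGS). All iPS lines were below the Sox2 mGS lines, where it was higher (0.35 ± 0.09, adjusted p = 0.0099), at least 1.12-fold, and with the feeder score 0.29 (adjusted p = 0.11).

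Of the 22 beta protocadherins, Pcdhb8 alone exceeded background in a group mean. It read 175.5, 208.3 and 182.5 in GS, 144.5, 131.7 and 129.5 in iPS, 136.2, 164.2 and 171.4 in ES and 156.3 and 137.4 in mGS lines. The induced lines read 148.3, 148.3 and 154.2 (Dnmt mGS), 163.2, 140.1 and 149.8 (Dmrt mGS), 159.8, 176.4 and 170.2 (Sox2 mGS) and 131.0, 159.2 and 154.7 (Oct4 mGS). Every GS line was above every iPS line. It was higher in GS than in iPS, at least 1.17-fold (0.48 ± 0.10, adjusted p = 6.7e-04), a call that held under every alternative in which it could be run; the filter on dim genes removed it. The other 21 had means of 24.9 and upward, all under background in every group. The probe set shared by 14 alpha symbols read 99.7 to 133.3 in the group means, also under background. In single comparisons 0 to 8 of the 22 were called, 8 of them higher in Sox2 mGS than in iPS, where 14.4% of all genes were higher and 23.6% called. Their sequences are alike, and whether their probe sets read each other's transcripts was not tested.

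**Figure D3:**
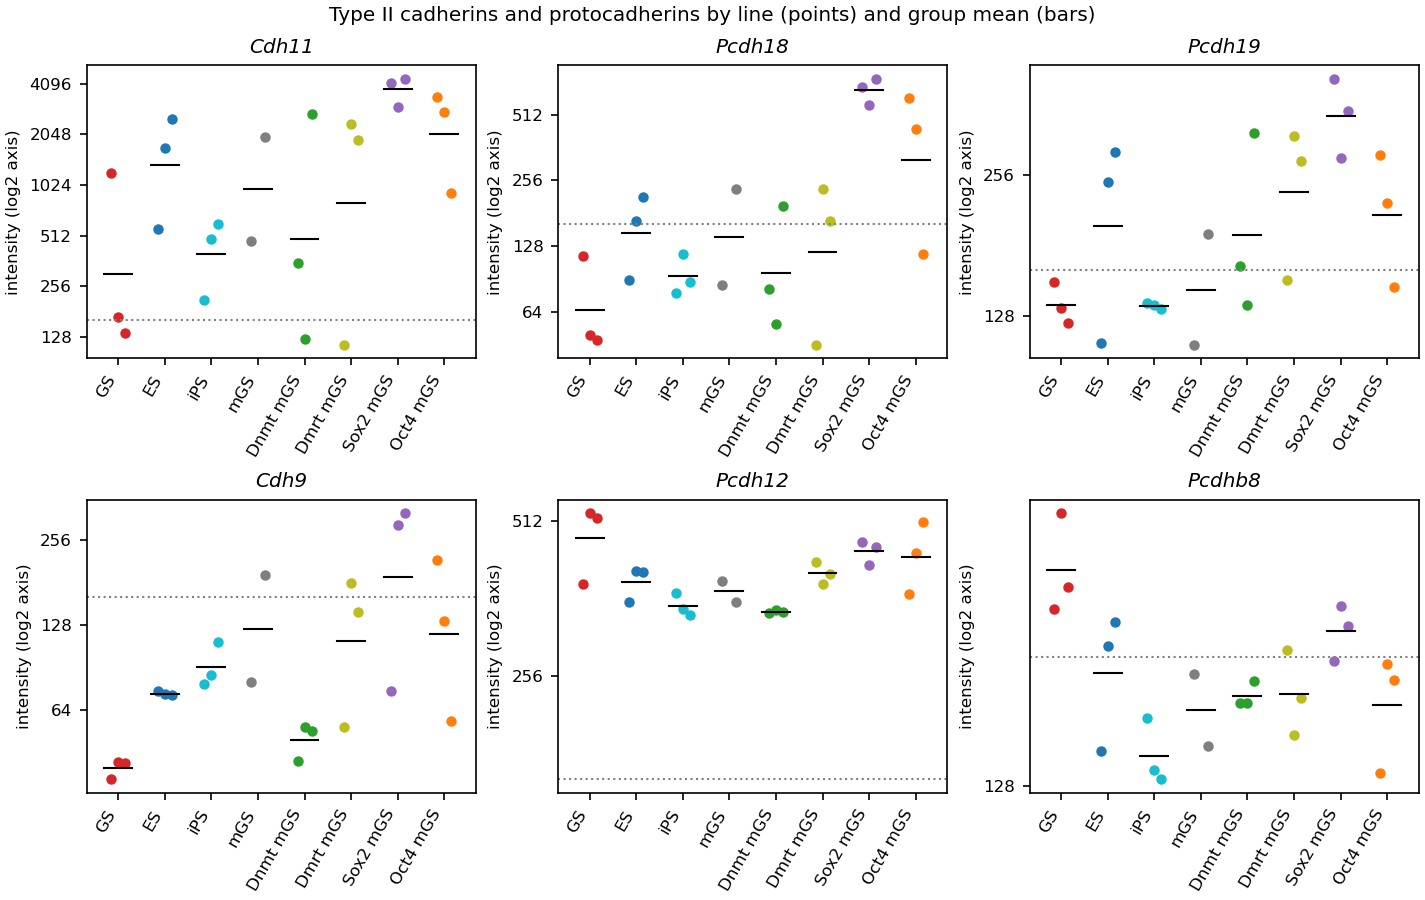
Intensity of 6 further members in each of the 23 lines (points) with group geometric means (bars), on log2 axes that differ between panels, and the background level of 161 dotted. Pcdh18 and Cdh11 have their highest group means in Sox2 mGS, and Pcdh12 and Pcdhb8 have their highest group means in GS.

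GS cells were compared with ES and iPS cells to describe what separates the germline from the pluripotent state. Against ES cells 7 members were higher and 2 lower in GS, 15.8% of the 57 where 43.2% of all genes were called (26.0% higher and 17.2% lower). The median difference was 0.05, and 0.09 over all genes. Higher were Cdh4, Cdh5, Cdh15, Cdh12, Pcdhb8, Pcdhb20 and Pcdhb7, and lower Cdh1 and Cdh3. Without GS 2 the count was 5. Against iPS cells 15 were higher and 3 lower, 31.6% beside 54.0% of all genes (35.5% higher and 18.5% lower). There the median of all genes was itself 0.17 and that of the members 0.14, and 10 of the 15 were never above background. After quantile normalization, and likewise with arrays centred on the median, 9 were higher and 3 lower. Both comparisons share the GS lines.

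The mGS types were set against GS cells to show what had changed with the conversion, and these comparisons share the GS lines too. For mGS cells, 3 members were higher and 7 lower, where 43.1% of genes were called (16.2% higher and 26.9% lower). That split was 5 and 5 after quantile normalization, and the count was 5 without GS 2 or without mGS 2. For Dnmt mGS, 2 members were higher and 12 lower than in GS (49.1% of genes called, 19.1% higher and 30.0% lower), and for Dmrt mGS, 2 were higher and 6 lower (41.6%, with 17.6% higher and 24.1% lower). The Dmrt mGS count was 4 without GS 2, 5 without Dmrt mGS 2 and 13 without Dmrt mGS 1. Cdh1 was among the higher and Cdh15 and Cdh5 among the lower members in all 5 mGS types.

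In Sox2 mGS the balance was the other way, with 18 members higher and 4 lower than in GS, where 44.0% of genes were called (19.4% higher and 24.6% lower). The higher members were led by Cdh1, Cdh11, Pcdh18, Cdh9, Cdh3, Cdh10 and Pcdh19, and the median was 0.07 against −0.06 over all genes. The count was 13 without GS 2, and with the feeder score as a covariate 4 were higher and 4 lower. The share of all genes called in those fits is not given, so the fall is not shown to be particular to the members. Of the 19 feeder markers, 17 were called higher in the same comparison. For Oct4 mGS, 7 were higher and 6 lower (42.9% of genes called, 20.2% higher and 22.6% lower), 7 in all without GS 2 and 6 without Oct4 mGS 1.

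The pluripotent types were compared with iPS cells, with which the mGS types share their strain. Between iPS and ES cells 0 members were called by limma (0.627% of genes called, 0.291% higher and 0.336% lower, and 7 members at an unadjusted p under 0.05), and 4 without ES R1. For mGS against iPS 0 members and 0% of genes were called, with 0 members at an unadjusted p under 0.05. Dnmt mGS had 0 called by limma (6.87% of genes, 4.18% higher and 2.68% lower, and 3 members at an unadjusted p under 0.05), or 1 without the line labelled Dnmt mGS 2. Dmrt mGS had 0 (0.848% of genes, 0.356% higher and 0.492% lower, and 13 members at an unadjusted p under 0.05).

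Sox2 mGS had 19 members higher than iPS and 0 lower, 33.3% of the members where 23.6% of all genes were called. Of all genes 14.4% were higher and 9.22% lower. Pcdh18, Cdh2, Pcdh19, Pcdh11x and Pcdh9 led, and 8 of the 19 were above background in some group. The members' median was 0.29 against 0.10 over all genes. The split was 13 higher and 1 lower after quantile normalization, and 14 and 1 with arrays centred on the median. Without single lines the count was 13 to 16, below the 19 of the full fit. In the same comparison 12 of 19 feeder markers were called higher, and with the feeder score as a covariate 5 members were higher and 1 lower. The share of all genes called in the alternative fits is not given, so the lower counts are not shown to be particular to the members. Oct4 mGS had 8 higher and 1 lower (13.8% of genes called, 10.4% higher and 3.43% lower). That was 2 and 1 with arrays centred on the median and 3 and 1 after quantile normalization, and without iPS 1, 2 or 5 or Oct4 mGS 1 the count was 5, 3, 2 or 4.

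Each induced route was also set against the mean of the other 3. Sox2 mGS had 8 members higher and 0 lower (14.2% of genes called, 5.99% higher and 8.16% lower), of which Pcdh18 and Cdh2 were above background. The count fell to 4 without Sox2 mGS 1 and 2 without Sox2 mGS 3. Dnmt mGS had 13 lower and 0 higher (22.8% of members and 19.2% of genes called, of the genes 8.85% higher and 10.4% lower), led by Pcdh18 (−1.60 ± 0.53), Cdh9 (−1.44 ± 0.43) and Cdh2. It was 3 without Dnmt mGS 1, 2 without the line labelled Dnmt mGS 2, 8 without Dmrt mGS 3 or Sox2 mGS 3, and 5 with the feeder score as a covariate. The Pcdh18 call was lost without Dnmt mGS 1 (−1.48), the line labelled Dnmt mGS 2 (−1.21), Dmrt mGS 2 (−1.44) or 3 (−1.52), Sox2 mGS 1 (−1.59), 2 (−1.64) or 3 (−1.57), or Oct4 mGS 1 (−1.44) or 2 (−1.52). The Cdh9 call was lost without Dnmt mGS 1 (−1.32) or the line labelled Dnmt mGS 2 (−1.52). With the feeder score as a covariate the differences were −0.68 for Pcdh18 (adjusted p = 0.064) and −1.10 for Cdh9 (adjusted p = 0.1). Dmrt mGS had 0 called by limma (0.316% of genes, 0.145% higher and 0.171% lower, and 4 members at an unadjusted p under 0.05). Oct4 mGS had 0 (1.06% of genes, 0.813% higher and 0.251% lower, and 7 members at an unadjusted p under 0.05), or 2 without Oct4 mGS 3.

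**Figure D4:**
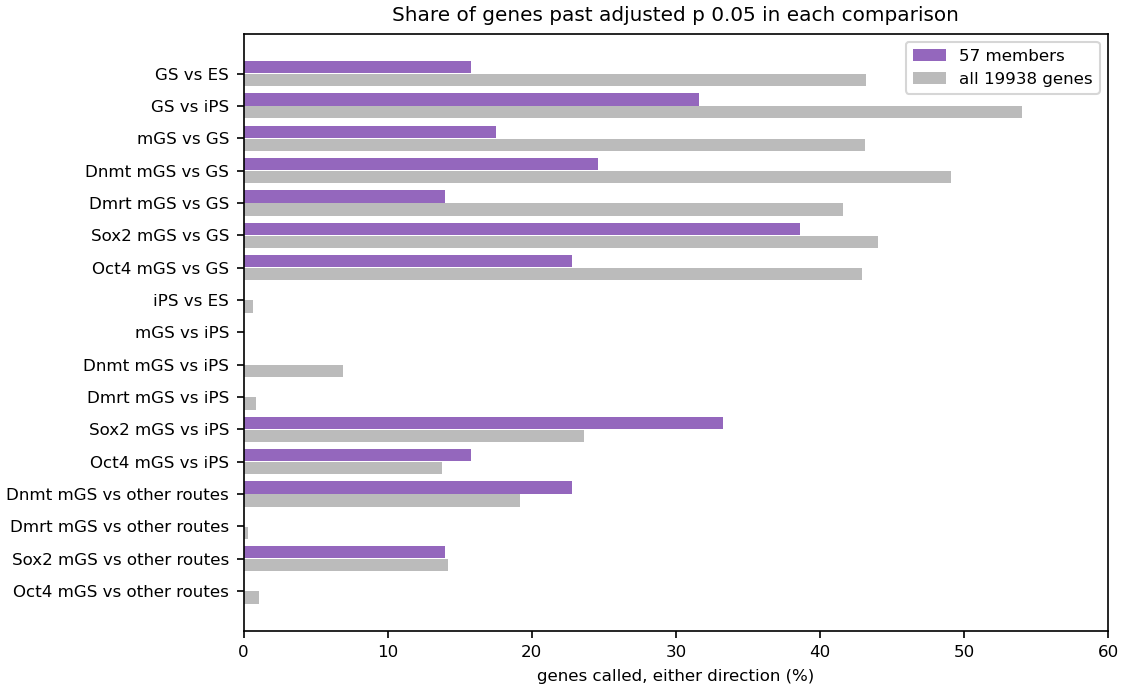
Share of the 57 members (purple) and of all 19938 genes (grey) past an adjusted p of 0.05 in either direction, in each of 17 comparisons, on an axis in percent that starts at 0. The members' share is below that of all genes in the comparisons with GS. It is above it for Sox2 mGS against iPS (33.3% and 23.6%), Oct4 mGS against iPS (15.8% and 13.8%) and Dnmt mGS against the other routes (22.8% and 19.2%). Shares are those without further normalization of the arrays.

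The partners of the cadherins were read from lists of catenins, nectins and other junction genes. Between GS and ES cells, 3 of 15 catenins and linkers were higher and 6 lower in GS (median −0.11), where 26.0% of all genes were higher and 17.2% lower. Jup (plakoglobin), which like beta-catenin links cadherins to the cell cortex, read 654.7 in GS and 2224.2 in ES (−1.76 ± 0.18). Ctnna1, the alpha-catenin that binds actin, read 1213.5 and 2086.9 (−0.78 ± 0.10), and the related Ctnnal1 was at least 12.1-fold lower (−4.09 ± 0.27). Ctnnb1, the beta-catenin gene, read 3954.2 in GS and 4266.6 in ES and was not called (−0.11 ± 0.06). Higher in GS was the neural catenin Ctnnd2 (345.1 against 154.7, under background), at least 2.14-fold. The remaining lower members were Pkp4, Pkp2 and Ctnnd1, and the remaining higher ones Ctnna2 and Afdn. Without ES R1 neither Pkp2 (−0.84) nor Ctnna2 (0.23) was called, and Afdn was not called without ES BRC1 (0.17), GS 2 (0.27) or GS 3 (0.26), nor with the feeder score (0.23) or arrays centred on the median (0.30). Of 40 such calls over the 7 partner lists, 9 were lost without some line.

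Of 5 nectins 1 was higher (Nectin4) and 3 lower in GS than in ES, where 26.0% of all genes were higher and 17.2% lower. Nectin2 was at least 4.23-fold lower (−2.34 ± 0.20). Of 8 desmosomal genes 1 was higher and 2 lower, beside the same shares of all genes. The higher one was Dsg1b, not called with the line as a random block (0.64). The lower ones were the desmosomal cadherin Dsg2 (41.0, under background, against 408.4), at least 2.53-fold, and Dsp, desmoplakin (−1.34 ± 0.38, not called without ES R1 at −0.85). Among 16 other genes of the cadherin superfamily, 4 were higher and 2 lower, where 43.2% of all genes were called. Clstn1 (1.06 ± 0.15) and Celsr2 (0.84 ± 0.20) were higher, and Celsr1 (−0.59 ± 0.15) was lower.

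Of 9 genes listed as repressors of Cdh1, 4 were higher and 1 lower in GS than in ES, 5 in all where 43.2% of all genes were called. The lower one was Tcf4, and the higher ones were Foxc2, Zeb1, Snai1 and Tcf3. Whether any of them acts on Cdh1 here was not tested. The forkhead factor Foxc2 read 2412.9 against 283.1 (3.09 ± 0.22) and the zinc-finger factor Zeb1 1014.0 against 545.6 (0.89 ± 0.22). Snai1 was higher by 0.88 ± 0.31, which was not called without ES R1 (0.65), GS 1 (0.87) or GS 2 (0.81). Of 9 regulators of epithelial genes 0 were higher and 3 lower, among them Grhl2 (167.7 against 506.3, −1.59 ± 0.40). Among 14 regulators of the clustered protocadherins, 5 were higher and 5 lower, beside 43.2% of all genes called. Of the 5 lower, Nipbl (−0.24), Rest (−0.39) and Smc1a (−0.29) were not called without ES R1, and Nipbl (−0.31) and Rest (−0.32) were not without GS 1. Nipbl was also not called without ES B6-6 (−0.29) or GS 2 (−0.24). The DNA methyltransferase Dnmt3b read 450.2 in GS and 1669.6 in ES (−1.89 ± 0.52).

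In Sox2 mGS against iPS cells 6 of the 9 listed repressors were higher and 0 lower (median 0.90), where 14.4% of all genes were higher and 9.22% lower. Of these 6, 2 kept their call without iPS 2 or without Sox2 mGS 1 and 3 without iPS 1 or without Sox2 mGS 3. With the clone number as a replicate block, a fit to which iPS 5 did not contribute, 3 kept it. Snai2, typical of mesenchymal cells, read 1135.4 against 212.9 (2.42 ± 0.72) and Zeb2 685.7 against 135.6, under background, at least 4.26-fold, while Cdh1 read 3565.5 against 3177.1. Fitted with the feeder score none of the 6 was called, the differences being −0.05 for Snai2, −0.22 for Zeb2, −0.34 for Twist2, 0.36 for Tcf4, 0.47 for Foxc2 and 0.78 for Zeb1. The Snai2 call was lost without iPS 1 (2.24), iPS 2 (2.39), Sox2 mGS 1 (2.31) or Sox2 mGS 3 (2.32). That of Zeb2 was lost without iPS 1 (2.20), iPS 2 (2.33), iPS 5 (2.48), Sox2 mGS 1 (2.29) or Sox2 mGS 3 (2.21). Catenins were split, with 2 higher and 2 lower, the latter being Jup (−0.90 ± 0.18) and Ctnna1 (−0.59 ± 0.10). Of 23 calls over the partner lists in this comparison, 13 were lost without some line.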

How the data were processed

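Total RNA of 23 lines, 2 cultures each, was labelled and hybridised to whole-transcript arrays. The deposited values are the authors' linear intensities, 16 to 27420 on 28856 probe sets; their scaling is not stated in the labels, and the submitters' processing notes name mm9. No further normalization was applied. Probe sets with a single gene symbol in the platform annotation (21789; 1621 have several and 5446 are not listed) gave 19938 genes, by the probe set with the highest mean. The cultures of a line were averaged on the log2 scale, and limma 3.58.1 (R 4.3.3) was fitted to 23 lines in 8 groups (15 residual degrees of freedom), with Benjamini-Hochberg adjustment over all genes. Where the dimmer group was under the background level of 161, a fold is the brighter mean over 161, written as "at least"; where both were under it, none is given.

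The fit was tested on simulated data with 200 of 19938 genes changed: for GS against iPS it called 47.8% of 1.5-fold, 83.6% of 2-fold and 93.9% of 4-fold changes. In the real comparison 54.0% of genes were called, so the cut-off differs and these percentages do not give its sensitivity. The members and lists were chosen with earlier results of these data known. Values in every line are given for Cdh1, Cdh2, the members that passed the F test with a group mean above background (up to 16), and the brightest member of each class; other called members are named by size of difference. Arrays carry no read depth, so the number of lines limits the precision. Alternatives were the line as a random block, replicate blocks, quantile normalization, median centring, leaving out the 40% dimmest genes, averaged probe sets, and leaving out each line. A feeder score covariate, and leaving out culture 1 of Oct4 mGS 1, were added after seeing the data. The labels of 1 ES R1 culture disagree on the name of its line; its title was used.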

Additional observations from a re-analysis of the deposited data

Results flagged for a closer look

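Against the mean of the other 3 routes, limma called 13 members in Dnmt mGS and 8 in Sox2 mGS, where 19.2% and 14.2% of all genes were called. Of these calls, 7 were of named members above background in a group mean, and only these are listed. Sox2 mGS stood higher in Pcdh18 (2.10, adjusted p = 0.016) and Cdh2 (1.45, adjusted p = 0.024). Dnmt mGS stood lower in Pcdh18 (−1.60), Cdh9 (−1.44), Cdh2 (−1.22), Pcdh12 (−0.33) and Cdh22 (−0.19). The last pair was not described above: Pcdh12 lost its call without Dnmt mGS 1 (−0.33), the line labelled Dnmt mGS 2 (−0.34) or Dnmt mGS 3 (−0.33), and Cdh22 without Dnmt mGS 1 (−0.20) or the line labelled Dnmt mGS 2 (−0.18). Groups of 2 or 3 lines are too small for a check of single outlying lines.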

How the results depend on the processing

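Of 66 calls of named members, 30 held without every 1 line and 21 under every alternative they entered, of which 10 were removed by the filter on the 40% dimmest genes and so were not run there; that fit held 29 of the 66. Another 2 turned direction, both with the feeder score as a covariate: Cdh11 (−0.58) and Cdh6 (−0.09) in Sox2 mGS against GS. Among partner genes Snai2 (−0.05), Zeb2 (−0.22) and Twist2 (−0.34) in Sox2 mGS against iPS turned as well. The cause was not tested.

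The share of all genes called in the alternative fits is not given here, so a changed count is not a result about the members in particular. Counts of called members moved by over 1.5 times as follows. With the clone number as a replicate block they were 10 for GS against iPS, 10 for Sox2 mGS against iPS, 2 for Oct4 mGS against iPS and 5 in the F test over 7 groups. In that fit the ES lines, which have no clone number, were given number 1. Only iPS 5 had number 5, so it did not contribute to the differences, and the iPS level rested on iPS 1 and 2. Deviations of same-numbered lines correlated at −0.64 to 0.79 (median 0.08) and those of other-numbered lines at −0.83 to 0.75 (median −0.00). Those of same-numbered cultures correlated at −0.43 to 0.39. With so few lines per group, these values cannot show whether same-numbered lines share an origin. After quantile normalization the counts were 1 for Dnmt mGS and 4 for Oct4 mGS against iPS, 1 for Oct4 mGS against the other routes and 10 over 7 groups. Median centring gave 1, 3 and 10 for Dnmt mGS and Oct4 mGS against iPS and over 7 groups. Leaving out the 40% dimmest genes left 12 members, which alone lowers the counts. These were then 3 for GS against ES, 4 for GS against iPS, and against GS 3 for mGS, 3 for Dnmt mGS, 2 for Dmrt mGS, 5 for Sox2 mGS and 3 for Oct4 mGS. They were 4 for Sox2 mGS and 1 for Oct4 mGS against iPS, 1 for Sox2 mGS and 2 for Dnmt mGS against the remaining routes, 6 over 8 groups and 1 over 7. With the feeder score they were 8 for Sox2 mGS and 4 for Oct4 mGS against GS, 6 and 4 against iPS, 3 for Sox2 mGS and 5 for Dnmt mGS against the remaining routes, and 5 over 7 groups. Averaged probe sets, both fits with the line as a random block, and leaving out culture 1 of Oct4 mGS 1 kept all 19 counts within 1.5 times.

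Without single lines the counts ranged from 5 to 12 (GS against ES), 13 to 18 (GS against iPS) and 0 to 4 (iPS against ES). Against GS they ranged from 5 to 11 (mGS), 10 to 17 (Dnmt mGS), 4 to 13 (Dmrt mGS), 13 to 18 (Sox2 mGS) and 6 to 15 (Oct4 mGS). Against iPS they ranged from 0 to 0 (mGS and Dmrt mGS), 0 to 1 (Dnmt mGS), 13 to 16 (Sox2 mGS) and 2 to 12 (Oct4 mGS). Against the other routes they ranged from 2 to 19 (Dnmt mGS), 0 to 0 (Dmrt mGS), 2 to 10 (Sox2 mGS) and 0 to 2 (Oct4 mGS). The F tests called 20 to 32 over 8 groups and 5 to 19 over 7.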

Other observations

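In 5 neural markers the Sox2 mGS lines had geometric means of 368.3 to 385.6 and the iPS lines 251.8 to 294.9. Of the 5, 1 was called higher than in iPS, Pax6, where 14.4% of all genes were higher. Dmrt mGS lines spanned 272.0 to 377.7, reaching the Sox2 mGS range, Oct4 mGS lines 253.7 to 360.9 and mGS lines 302.7 to 313.4. Against the other routes 0 of the 5 were called in Sox2 mGS.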
